A study of Mus musculus with 6 samples.

Results

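The genes described here are 10 members of the Bcl2 family, the proteins that decide whether the outer mitochondrial membrane is opened during apoptosis. They were chosen by name, as the rows of the deposited count table whose Ensembl identifiers carry the symbols Bcl2, Bcl2l1, Mcl1, Bak1, Bok, Bid, Bad, Bik, Bcl2l11 and Bmf, which gives 10 of the 41388 genes in the table; the set of symbols was drawn up with earlier results of these data known. RNA was taken from whole livers of 6-week-old mice on a mixed C57BLx129S6SvEv background, with 3 libraries labelled wild type and 3 labelled Atp7b-/-. Atp7b encodes a copper pump of hepatocytes, and its loss in people causes Wilson disease. Mice of both genotypes received the same diet, with copper at 16 ppm, zinc at 100 ppm and iron at 235 ppm, and the sources used here do not say how Atp7b was altered. Read pairs were sequenced for 2 libraries (paired-end: wild type replicate 1 and Atp7b-/- replicate 3) and single reads for the other 4 (single-end). The labels do not state that each library is a separate animal, so the p-values reflect only how these libraries vary, and part of that spread may be technical.

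Family members fall into 3 roles. Anti-apoptotic proteins (Bcl2, Bcl2l1, Mcl1) hold the pore-forming effectors (Bak1, Bok and, outside the 10 genes, Bax) in check, and BH3-only proteins (Bid, Bad, Bik, Bcl2l11, Bmf) sense stress and either occupy the anti-apoptotic proteins or activate the effectors. Once effectors open the outer membrane, cytochrome c binds Apaf1 and caspases are activated. Hepatocytes depend on Mcl1 and Bcl2l1 for survival, and in them death receptors need cleavage of Bid by caspase 8 to kill efficiently.

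The libraries held 5919389 to 25973968 counts. Atp7b, the check of the genotype labels, lay at 25.3, 85.2 and 59.7 CPM (library-scaled counts after TMM normalization) in wild type replicates 1 to 3 and at 19.2, 13.7 and 13.3 CPM in Atp7b-/- replicates 1 to 3, so the groups did not overlap. The labelled sex did not match the counts in every library. Atp7b-/- replicate 3, labelled female, had 126 CPM of the Y-linked gene Ddx3y and 0.482 CPM of Xist, the RNA of the inactive X chromosome. Wild type replicate 3, also labelled female, carried both (28 CPM of Ddx3y and 17.4 CPM of Xist), and among the 6 libraries Xist was above 100 CPM only in wild type replicate 2, at 371 CPM. Atp7b-/- replicates 1 to 3 all had Ddx3y (29.5, 37.7 and 126 CPM) and little Xist (0.117, 0.702 and 0.482 CPM). Wild type replicate 1 was alike (161 and 1.01 CPM). Among the single-end libraries, sex by these counts thus cannot be told apart from genotype. Its part in the genotype changes was not tested. Between paired-end and single-end libraries 52.8% of all 12988 genes tested differed (edgeR, adjusted p under 0.05), and layout was kept as a term beside genotype. The paired-end libraries also had the most counts (23651080 and 25973968) and the largest mitochondrial shares (7.74 and 8.14%). Layout cannot be told apart from these differences.

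Transcripts of 2 BH3-only genes, Bid and Bmf, were about 4 times lower in Atp7b-/- livers, and the other 8 members did not pass the test. Bid fell 4.09-fold and Bmf 3.77-fold in the fit. In bulk liver RNA, fewer cells of a type and less RNA per cell cannot be told apart, and the summed hepatocyte markers were also lower in the knockout, by their means 66000 ± 10000 against 97200 ± 16700 CPM (SD, n = 3 each). Alb alone made up 38200 and 62500 CPM of these means, and no single hepatocyte marker was called. No member was called higher. At an unadjusted p under 0.05 edgeR found the same 2 of 10 members and no others, beside 14.5% of all genes (1889 of 12988). DESeq2 and limma-voom called 2 members each, again Bid and Bmf. Across all genes tested edgeR called 2.49% in either direction and 0.585% lower, against 2 of 10 members, while DESeq2 called 5.05% and limma-voom 3.05% of genes. All 10 members passed the filter on low counts. Their median log2 fold change was -0.14, beside -0.00866 over all genes, with 3 positive and 7 negative values. For 3 members, Bid, Bmf and Bcl2l11, every Atp7b-/- library lay below every wild type library, and for none did it lie above. Over all genes 8.51% had ranges that did not overlap, 3.28% with the knockout below and 5.23% with it above.

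**Figure D1:**
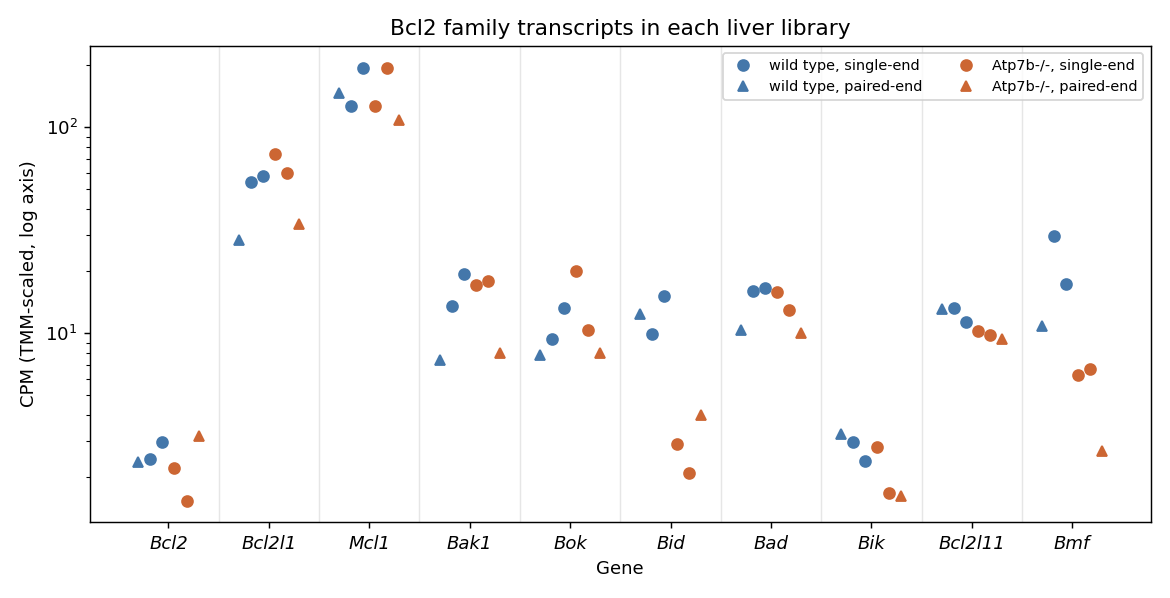
CPM (TMM-scaled, log axis) of the 10 Bcl2 family genes in each of the 6 liver libraries; color gives the genotype, circles are single-end and triangles paired-end libraries. For Bid, Bmf and Bcl2l11 every Atp7b-/- library lies below every wild type library, whereas the genotypes overlap for Mcl1, Bcl2l1, Bak1, Bok, Bad, Bik and Bcl2. Bcl2l11 was not called (edgeR adjusted p = 0.498).

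Bid encodes the BH3-only protein that caspase 8 cleaves to carry the death receptor signal to mitochondria. The gene (ENSMUSG00000004446) lies on the minus strand of chromosome 6, at 120891930 to 120916853 in GRCm38. It was at 12.4, 9.94 and 15.2 CPM in wild type replicates 1 to 3. In Atp7b-/- replicates 1 to 3 it was at 2.91, 2.1 and 4.03 CPM. The highest knockout value was thus below the lowest wild type value. The means were 12.5 ± 2.63 and 3.02 ± 0.966 CPM (SD, n = 3 each). In edgeR's quasi-likelihood test Bid fell by 2.03 on the log2 scale (SE 0.31, 95% interval -2.73 to -1.33, Benjamini-Hochberg adjusted p = 0.00955). The difference of log2 CPM was -2.25 between the single-end libraries and -1.59 between the 2 paired-end ones.

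Exons of Bid share 628 bases (17.7% of its exon length) with Bcl2l13, a family gene on the opposite strand, and the strand setting of the counting is not given. Reads from this stretch could not be assigned to either gene with certainty. Bcl2l13 itself was at 55.6 ± 9.74 CPM in wild type livers and at 51.9 ± 5.53 CPM in the knockout (SD, n = 3 each; fitted log2 fold change -0.09, SE 0.18, edgeR adjusted p = 0.871).

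Bmf encodes a BH3-only protein that is held on the cytoskeleton through a dynein light chain and released by loss of attachment and other stress. The gene (ENSMUSG00000040093) lies on the minus strand of chromosome 2, at 118528757 to 118549687, and its exons overlap no other annotated gene. Wild type replicates 1 to 3 had 10.8, 29.8 and 17.4 CPM. Atp7b-/- replicates 1 to 3 had 6.3, 6.73 and 2.69 CPM. The groups did not overlap, but within each genotype the paired-end library was the lowest. Means were 19.3 ± 9.67 CPM in wild type livers and 5.24 ± 2.22 CPM in the knockout (SD, n = 3 each). Bmf fell by 1.92 on the log2 scale (SE 0.27, 95% interval -2.52 to -1.31, edgeR adjusted p = 0.00642). The log2 CPM difference was -1.79 in the single-end and -1.95 in the paired-end libraries, so its size was similar in both layouts although the level was not.

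The Bid call ended without wild type replicate 1, and the Bmf call without either paired-end library. When either paired-end library is left out, the layout term takes up the other one. Both leave-outs are then in effect the fit of the single-end libraries only (log2 fold change -2.27 for Bid and -1.87 for Bmf). They are not separate checks and do not show that 1 particular library carries a call. Without wild type replicate 1 the edgeR adjusted p was 0.0541 for Bid and 0.0658 for Bmf, and without Atp7b-/- replicate 3 it was 0.0496 and 0.0698, while the log2 fold changes stayed between -2.27 and -1.80 for Bid and between -2.12 and -1.67 for Bmf over the 6 leave-outs of 1 library. In a fit without layout, in which no gene at all was called and 545 of 12988 had an unadjusted p under 0.05, Bid stood at -2.03 (adjusted p = 0.238) and Bmf at -1.89 (adjusted p = 0.606).

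The sequences before the start sites of Bid and Bmf are shown because these members fell together. They are the 250 bases upstream of the RefSeq start nearest to the start of the gene, in build GRCm38.p6, written along the gene's strand, for Bid chr6:120916825-120917074 and for Bmf chr2:118549687-118549936, both on the minus strand. Capitals mark GC boxes (GGGCGG) and CCAAT boxes (CCAAT), read on either strand, so that a CCAAT box on the opposite strand appears as ATTGG.
Bid: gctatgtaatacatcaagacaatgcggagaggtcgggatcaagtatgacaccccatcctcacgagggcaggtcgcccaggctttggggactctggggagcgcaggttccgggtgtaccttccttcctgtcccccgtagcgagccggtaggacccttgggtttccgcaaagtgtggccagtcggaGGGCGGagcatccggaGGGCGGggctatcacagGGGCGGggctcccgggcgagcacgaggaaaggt
Bmf: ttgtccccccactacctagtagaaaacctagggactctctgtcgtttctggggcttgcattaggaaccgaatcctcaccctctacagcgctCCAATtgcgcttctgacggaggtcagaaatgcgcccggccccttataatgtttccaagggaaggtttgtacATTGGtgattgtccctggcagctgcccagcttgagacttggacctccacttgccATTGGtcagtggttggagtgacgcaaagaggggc
The window of Bid held 3 GC boxes and no CCAAT box, and that of Bmf held 3 CCAAT boxes and no GC box. Both held 1 core of the metal response element, searched as TGCACNC or TGCGCNC on both strands, a match found in 21.4% of all 32851 RefSeq windows of this length. GC boxes were present in 32.7% and CCAAT boxes in 33.8% of them. Windows were found for 9 of the 10 members, all but Bik. Of these 9, GC boxes were present in 6, CCAAT boxes in 2 (Bmf and Bcl2l11) and the metal response core in 5. A FOXO site (GTAAACA, both strands) was present in 1, that of Bcl2l11, against 3.2% of all windows. None of these 9 windows held an E-box (CACGTG), an AP-1 site (TGANTCA, both strands) or a p53 half-site, which were in 6%, 6.7% and 7.1% of all windows. These are matches of letters in the window nearest to each gene's start. The shares over all windows also include further starts inside genes, so the member counts and these shares are not on the same footing. RefSeq lists further starts for Bmf, Bcl2l1, Bad and Bcl2l11. Before the start of Bmf farthest inside the gene, chr2:118544588-118544837 held 1 p53 half-site, and the other inner window of Bmf held 1 CCAAT box. The inner window of Bad held 1 CCAAT box and 1 metal response core, that of Bcl2l11 2 CCAAT boxes, 2 metal response cores and 2 GC boxes, and those of Bcl2l1 none of the motifs.

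The remaining BH3-only members, Bcl2l11, Bik and Bad, also had negative fold changes, none of which passed the test. Outside the 10 genes, the BH3-only gene Bbc3 had a positive fitted log2 fold change of 0.65 (SE 0.76, edgeR adjusted p = 0.77). The sign for Bbc3 differed between the layouts. Bcl2l11 encodes Bim, a BH3-only protein that binds all anti-apoptotic members. It had 13.1, 13.3 and 11.3 CPM in wild type libraries and 10.2, 9.82 and 9.33 CPM in Atp7b-/- replicates 1 to 3. These ranges did not overlap, but the log2 fold change was small, at -0.37 (SE 0.22, 95% interval -0.86 to 0.13, edgeR adjusted p = 0.498). Bik, a BH3-only protein of the endoplasmic reticulum, had 3.24, 2.97 and 2.41 CPM in wild type libraries and 2.8, 1.68 and 1.62 CPM in Atp7b-/- livers. Its groups overlapped through Atp7b-/- replicate 1, and 12 to 71 counts per library fell on it (log2 fold change -0.52, 95% interval -1.41 to 0.36, edgeR adjusted p = 0.602).

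Bad, which is kept inactive by phosphorylation under growth factor signalling, had 10.4, 16.1 and 16.5 CPM in wild type libraries and 15.9, 12.9 and 9.99 CPM in Atp7b-/- livers. The groups overlapped almost entirely (log2 fold change -0.13, 95% interval -0.61 to 0.34, edgeR adjusted p = 0.829). Bad shares 20.5% of its exon length with Gpr137 on the opposite strand, so its counts carry the same doubt about strand as those of Bid.

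Among the anti-apoptotic genes none was called. Mcl1, a short-lived protein required for hepatocyte survival, had 147, 127 and 194 CPM in wild type libraries and 127, 195 and 108 CPM in Atp7b-/- replicates 1 to 3. The groups overlapped over most of their range, and the log2 fold change was -0.14 (SE 0.25, 95% interval -0.71 to 0.43, edgeR adjusted p = 0.849). Its sign differed between the layouts, at 0.0047 in the single-end and -0.44 in the paired-end libraries.

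Bcl2l1 encodes Bcl-xL, which shares with Mcl1 the protection of hepatocytes. It had 28.5, 54.2 and 58 CPM in wild type libraries and 74.2, 60 and 34 CPM in Atp7b-/- livers. Within each layout the knockout was higher by 0.25 on the log2 CPM scale, but across layouts the groups overlapped and the fitted log2 fold change of 0.26 was not called (SE 0.18, 95% interval -0.15 to 0.67, edgeR adjusted p = 0.574). Bcl2, the founding member, had 2.38, 2.46 and 2.97 CPM in wild type libraries and 2.22, 1.54 and 3.17 CPM in Atp7b-/- livers. With 11 to 92 counts per library its interval reached from -1.02 to 0.74 around a log2 fold change of -0.14 (edgeR adjusted p = 0.913).

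The effectors among the 10 genes were not called either. Bak1, which sits on mitochondria and forms pores, had 7.4, 13.5 and 19.5 CPM in wild type libraries and 17.1, 18 and 8.06 CPM in Atp7b-/- livers (log2 fold change 0.11, 95% interval -0.40 to 0.61, edgeR adjusted p = 0.879). The paired-end libraries were the lowest of each genotype. Bak1 shares 18.2% of its exon length with Ggnbp1 on the opposite strand. Bok, an effector that acts without the usual control by other members, had 7.86, 9.43 and 13.3 CPM in wild type libraries and 20.1, 10.4 and 8.06 CPM in Atp7b-/- livers. Only Atp7b-/- replicate 1 lay above the wild type range (log2 fold change 0.31, 95% interval -0.37 to 0.99, edgeR adjusted p = 0.704).

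**Figure D2:**
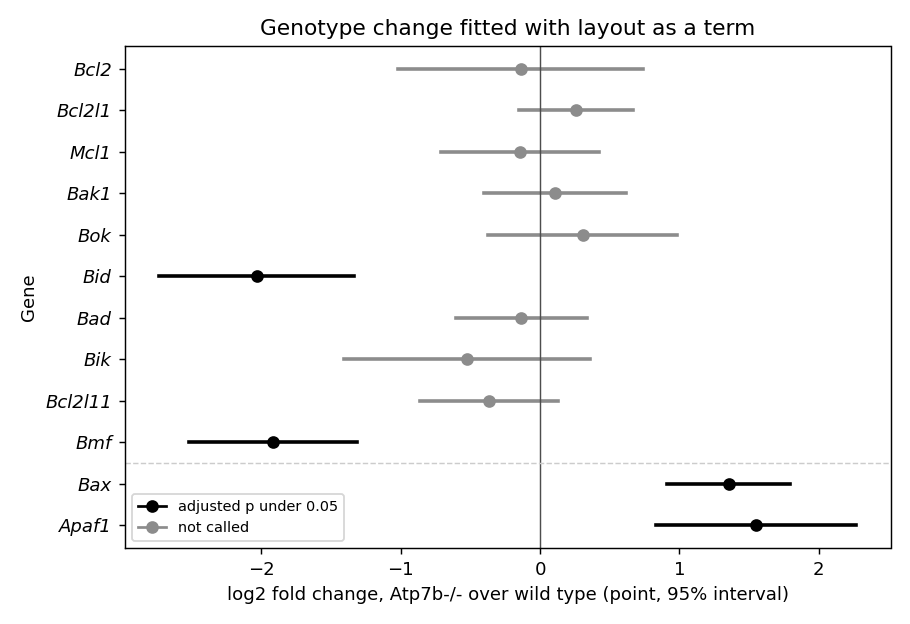
Fitted log2 fold change of Atp7b-/- over wild type for the 10 members and, under the dashed line, for Bax and Apaf1; points are edgeR estimates, bars their 95% intervals, black those with an adjusted p under 0.05. Bid (-2.03) and Bmf (-1.92) lie left of 0, Bax (1.35) and Apaf1 (1.55) right of it, and every grey bar crosses 0.

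Layout was tested in the same fit. Bcl2l1, Bak1 and Bmf were lower in the paired-end libraries (log2 -0.98, -1.13 and -1.20; edgeR adjusted p = 0.00345, 0.00473 and 0.00727), 3 of 10 members against 52.8% of all genes. Bid did not pass this test (0.31, adjusted p = 0.421). The genotype difference had the same sign in both layouts for 8 of 10 members, all but Bcl2 and Mcl1, and for 58.1% of all genes. A test of whether the genotype change itself differed between layouts called no member (edgeR adjusted p of at least 0.987) and 0.0154% of all genes (2 of 12988). In it each layout holds 1 or 2 libraries of a genotype, and labelled sex is opposite in the 2 layouts (single-end wild type and paired-end Atp7b-/- libraries female, the others male), so a genotype change that differs by layout cannot be told apart from an effect of labelled sex, itself at odds with the counts in the libraries named above.

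**Figure D3:**
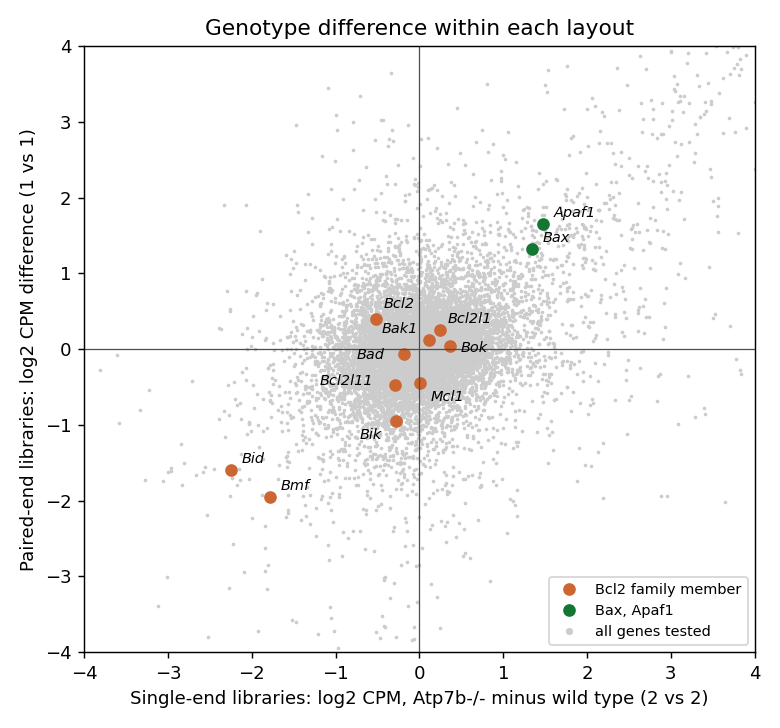
Difference of log2 CPM, Atp7b-/- minus wild type, between the single-end libraries (x axis, 2 against 2) and between the paired-end libraries (y axis, 1 against 1); grey points are all 12988 genes tested, of which 102 lie beyond the axes. Bid (-2.25 and -1.59) and Bmf (-1.79 and -1.95) lie in the lower left, Bax and Apaf1 in the upper right, and the other 8 members near the center.

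Scaled by exon length, Mcl1 was the most abundant member in both genotypes. In wild type livers it had 45.6 ± 10.1 CPM per kb of exon, followed by Bcl2l1 at 10.2 ± 3.5 CPM per kb (SD, n = 3), and these ranges did not overlap. Bad (5.6), Bak1 (5.59) and Bok (5.55 CPM per kb) followed within each other's spread. Bmf (3.68 ± 1.84) and Bid (3.53 ± 0.741 CPM per kb) came next and overlapped. Bid was above Bik (1.81 ± 0.268) in each library without overlap, Bik and Bcl2l11 (1.56 ± 0.134 CPM per kb) overlapped, and Bcl2 was the lowest at 0.284 ± 0.0347 CPM per kb.

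In Atp7b-/- livers the order differed mainly in Bid and Bmf. Mcl1 (42 ± 13.4) and Bcl2l1 (12.2 ± 4.45 CPM per kb) again led, and Bok (6.97), Bak1 (5.98) and Bad (5.05 CPM per kb) again overlapped. Bik (1.28 ± 0.417) and Bcl2l11 (1.22 ± 0.0542 CPM per kb) now stood before Bmf (0.997 ± 0.423) and Bid (0.85 ± 0.272 CPM per kb), each overlapping its neighbor. Bid was still above Bcl2 (0.252 ± 0.0892 CPM per kb) in each of the 3 libraries. Exon length is the union over all annotated transcripts, so genes with long, rarely used exons are understated on this scale.

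**Figure D4:**
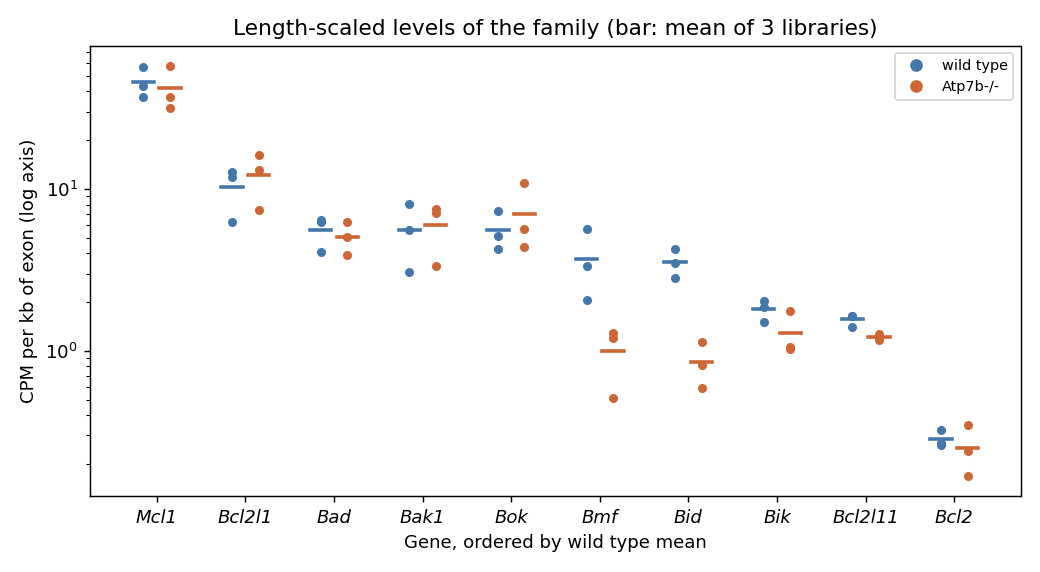
CPM per kb of exon (log axis) of the 10 members, ordered by their wild type mean; points are the 3 libraries of each genotype and bars their means. Mcl1 is on top and Bcl2 at the bottom in both genotypes, and Bmf and Bid drop from the middle of the order to below Bik and Bcl2l11 in Atp7b-/- livers.

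Summed by role, the length-scaled level of the 5 BH3-only genes was 13.3, 18.3 and 17 CPM per kb in wild type and 11.2, 9.2 and 7.73 CPM per kb in Atp7b-/- replicates 1 to 3. These ranges did not overlap. Without Bid and Bmf the sum of the other 3 was 7.74, 9.8 and 9.37 against 9.23, 7.33 and 6.08 CPM per kb, which overlapped. The 3 anti-apoptotic genes summed to 56.2 ± 11.7 in wild type and 54.5 ± 15.5 CPM per kb in Atp7b-/- livers (SD, n = 3 each), and the 2 effectors to 11.1 ± 4.01 and 13 ± 5.15 CPM per kb. The 5 BH3-only members made up 19.6% of the length-scaled total of the 10 genes in wild type and 12.5% in Atp7b-/- livers on average. Sums and shares depend on which genes are listed. They leave out the BH3-only gene Bbc3, at 10.3 ± 8.07 CPM per kb in wild type and 10.7 ± 6.61 CPM per kb in Atp7b-/- livers. The effector Bax, at 13.2 ± 5.05 and 33.9 ± 14.7 CPM per kb, is left out too (SD, n = 3 each). All these sums are descriptions of the libraries and were not tested.

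The other genes of the pathway were read from the same fit over 6 lists. Of 69 listed genes 59 passed the filter. Among them Bax and Apaf1 rose, no gene fell and 57 were not called, with a median log2 fold change of -0.03 against -0.00866 over all genes. The share of all genes called higher was 1.9%. At an unadjusted p under 0.05 edgeR found 5 higher (Bax, Apaf1, Endog, Fas and Tnfrsf10b) and 1 lower (Ripk1). That is 6 of 59, beside 14.5% of all genes. DESeq2 called 3 of 68 higher, adding Tnfrsf10b, limma-voom called 2 of 59, and neither called a gene lower. Over all genes DESeq2 called 5.05% and limma-voom 3.05% in either direction, and edgeR without the filter on low counts called 1116 of 25130. Without the filter on low counts edgeR called 4 higher (Bax, Apaf1, Endog and Tnfrsf10b) and 1 lower, the kinase gene Pim3, which with the filter stood at -0.83 (adjusted p = 0.485).

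Bax is the main effector beside Bak1 and a target of p53. It had 11.7, 25.5 and 25.4 CPM in wild type libraries and 75.4, 55.7 and 29.2 CPM in Atp7b-/- replicates 1 to 3, so the groups did not overlap. Bax rose 2.55-fold (log2 1.35, SE 0.19, edgeR adjusted p = 0.00745), while the log2 fold change of Bak1 was 0.11. Among the other Bcl2 family genes 7 of 15 passed the filter, and Bax was the only one called. Bnip3, which acts in mitophagy, stood at -0.65 on the log2 fold change scale (edgeR adjusted p = 0.415), and the p53-induced BH3-only gene Bbc3 (Puma) at 0.65 (SE 0.76, adjusted p = 0.77). The log2 CPM difference of Bbc3 was -0.38 between the single-end and 2.68 between the paired-end libraries. Wild type replicate 1 had 2.06 CPM of Bbc3, against 31.2 and 32.3 CPM in wild type replicates 2 and 3.

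Apaf1, the scaffold of the apoptosome, had 4.71, 3.48 and 2.04 CPM in wild type libraries and 9.68, 6.03 and 15 CPM in Atp7b-/- livers. It rose 2.93-fold (log2 1.55, SE 0.32, edgeR adjusted p = 0.0393) and was the only one of 12 genes of the apoptosome, the caspases and the released mitochondrial proteins that passed. The nuclease gene Endog was at 0.94 on that scale (adjusted p = 0.133), a call gained without wild type replicate 3 (adjusted p = 0.0154) and without the filter (0.000948). The caspase genes Casp8 (0.11) and Casp9 (-0.28) were not called (edgeR adjusted p = 0.848 and 0.627). Leaving out 1 library ended the Apaf1 call in 4 of 6 cases, all but wild type replicate 2 and Atp7b-/- replicate 2 (up to adjusted p = 0.218). The Bax call ended without either paired-end library (0.0658 without wild type replicate 1 and 0.0662 without Atp7b-/- replicate 3). For Apaf1 and Bax alike, leaving out either paired-end library is in effect the same single-end comparison. The rise of Bax was known from earlier work on these libraries and is no independent evidence.

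In the death receptor arm edgeR called none of the 8 genes tested. Tnfrsf10b, the mouse receptor of the ligand TRAIL, had 1.97, 1.19 and 1.3 CPM in wild type libraries and 6.35, 2.1 and 7.58 CPM in Atp7b-/- livers (log2 fold change 1.87, SE 0.45, edgeR adjusted p = 0.0735). Its groups did not overlap at these low levels. It was called higher by DESeq2 (adjusted p = 0.0196) and by edgeR without the filter on low counts (0.000535) or without Atp7b-/- replicate 2 (0.028), and in the other alternatives the adjusted p was 0.0618 to 1. Ripk1, a kinase at the branch between survival, apoptosis and necroptosis, was at a fitted log2 fold change of -0.79 (SE 0.24, edgeR adjusted p = 0.154). None of the 4 caspase inhibitors passed, with Birc2 at 0.38 (adjusted p = 0.447) and Xiap at 0.21 (adjusted p = 0.703).

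None of the 14 partners and turnover factors of family proteins was called. Vdac2, the mitochondrial channel that binds Bak1, was at a fitted log2 fold change of -0.40 (edgeR adjusted p = 0.417), and the mitochondrial fission factor gene Mff one of 0.43 (adjusted p = 0.4). Of the 14 transcription factors and kinases upstream of family genes none was called, and 11 had negative values. Foxo3, a transcription factor that induces Bcl2l11, stood at -0.52 (adjusted p = 0.388), and Gsk3b, a kinase that marks Mcl1 for turnover, at -0.45 (adjusted p = 0.458). The transcript of Trp53 itself averaged 17.8 ± 2.55 CPM in wild type livers and 21.1 ± 2.34 CPM in the knockout (SD, n = 3 each; log2 fold change 0.26, edgeR adjusted p = 0.627).

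Markers of other cell types and of hepatocytes were summed per library. The summed level of 8 hepatocyte markers was 79900 to 113000 CPM in wild type and 55000 to 74700 CPM in Atp7b-/- libraries, which did not overlap, with Alb contributing most. By edgeR no single hepatocyte marker was called, and Alb alone had an unadjusted p under 0.05 (log2 fold change -0.72, adjusted p = 0.256). Of the 8 hepatocyte markers 7 had negative values and 1 a positive one (median log2 fold change -0.29). The sum of 6 erythroid genes was 66.4 to 220 CPM in wild type and 236 to 344 CPM in Atp7b-/- libraries, with none called by edgeR and 1, Hbb-bs, at an unadjusted p under 0.05. All 5 erythroid genes tested had positive values (median log2 fold change 0.47). Alas2 made up most of this sum (99.5 of 148 CPM by the wild type means and 236 of 299 CPM by those of the knockout), and its own groups overlapped (12.4 to 191 against 184 to 281 CPM). Sums of the 9 macrophage markers (210 to 399 against 227 to 334 CPM), the 10 lymphocyte markers (7.79 to 15.8 against 7.58 to 19.4 CPM) and the 7 neutrophil markers (0.51 to 2.33 against 0.561 to 1.72 CPM, with Ly6g at 0 throughout) overlapped. Those of 7 sinusoidal endothelial (197 to 522 against 181 to 433 CPM), 7 stellate and fibroblast (250 to 495 against 308 to 383 CPM) and 6 biliary markers (21.8 to 51.4 against 29.2 to 78 CPM) overlapped too. Of the 5 biliary markers tested (median log2 fold change 0.74) edgeR called none. For 2 of them, Epcam and Sox9, every Atp7b-/- library lay above every wild type library, and 2 had an unadjusted p under 0.05, Sox9 at a log2 fold change of 1.37 (edgeR adjusted p = 0.104) and Spp1 at 0.90 (adjusted p = 0.334). All 7 sinusoidal endothelial markers had negative values (median -0.30), 1 of them, Oit3, at an unadjusted p under 0.05, and none was called. No stellate or fibroblast marker had an unadjusted p under 0.05. For 1 of them, Des, every Atp7b-/- library lay below every wild type library. Des had 97.5, 7.14 and 10.9 CPM in wild type and 5.77, 6.31 and 3.62 CPM in Atp7b-/- replicates 1 to 3. Reads on mitochondrially encoded genes were a larger share in the knockout within each layout, at 2.57 and 2.5% in the wild type and 4.15 and 4.09% in the Atp7b-/- single-end libraries, and at 7.74 and 8.14% in the paired-end ones. The part of these marker levels and of the mitochondrial share in the falls of Bid and Bmf was not tested.

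The genes whose profile over the 6 libraries was most like that of Bmf, the member with the smallest p, were Slc23a2, a vitamin C transporter (Pearson r = 0.995 on log2 CPM), Pigr, the receptor that carries immunoglobulin A into bile (0.988), and Tbc1d2b (0.988). These correlations are descriptions over 6 libraries that share depth, layout and genotype differences. Each of the 3 genes was called lower in Atp7b-/- livers (edgeR adjusted p = 0.0404, 0.0128 and 0.036), with Pigr at 1070, 1900 and 1520 CPM in wild type libraries and 747, 658 and 450 CPM in Atp7b-/- replicates 1 to 3. Because they were picked for likeness to Bmf, itself lower in these libraries, their fall largely follows from the choice and is no further evidence.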

How the data were processed

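Raw counts per Ensembl gene were deposited by the authors as 1 table, with a column for each of the 6 liver libraries and without scaling. Per the submitters' processing notes, STAR 2.4, featureCounts and edgeR 3.8 were used on build GRCm38; the sources used here do not give the annotation release, strand setting, treatment of reads with several matches, or whether a pair counts once. Symbols, positions and exon lengths came from GENCODE M21 (GRCm38), promoters from RefSeq (GRCm38.p6). Groups follow the labelled genotype; replicates are numbered by accession and not paired. No pair of libraries of a genotype agreed within counting noise, so none was treated as 1 library deposited more than once (chi-square per gene of 36.4 and 52 between libraries of the same layout and 289 to 515 across layouts).

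The test was edgeR 4.0.16 (R 4.3.3) with TMM, a robust quasi-likelihood fit on layout plus genotype, its expression filter (10 counts as the minimum) and Benjamini-Hochberg adjustment over 12988 genes, called under 0.05, after the code was tested on simulated data. DESeq2 1.42.0, limma-voom 3.58.1, other scalings, no filter, other covariates, single-end libraries alone and leaving out libraries were alternatives. SE is the absolute log2 fold change over the square root of F, and 95% intervals use its t quantile. Log2 CPM within layouts used a prior count of 2. Among the members Bcl2 and Bik had the fewest counts over the 6 libraries.

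The members and lists were chosen with earlier results of these data known. Named were all members, called pathway genes and up to 2 more per list by p, and the 3 genes most like the member with the smallest p. Bcl2l13, Bbc3, Casp8, Casp9, Fas, Trp53, Pim3, Alb and the other markers with values were named after their values were seen. No p was adjusted over the members alone.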

Additional observations from a re-analysis of the deposited data

How the results depend on the processing

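Bid and Bmf were called lower with RLE or upper-quartile factors, without the filter on low counts, with DESeq2 and with limma-voom, and kept a negative fold change in all 15 alternatives (adjusted p 1.63e-07 to 0.744 for Bid and 5.84e-09 to 1 for Bmf). Members called numbered 0 without the layout term, 0 with labelled sex in its place and 0 in the single-end libraries only, and 0 to 2 when 1 library was left out: 0 without wild type replicate 1 and 1 (Bid) without Atp7b-/- replicate 3. Pathway genes called numbered 5 without the filter (4 higher and Pim3 lower), 0 in each of those 3 other fits, and 0 to 3 when 1 library was left out (0 without either paired-end library, 1 without Atp7b-/- replicate 1). All genes called numbered 1116 without the filter, 728 with DESeq2, 0 without layout, 0 with labelled sex, 126 in the single-end libraries only, and 119 to 323 with 1 library left out (131 without wild type replicate 1, 208 without Atp7b-/- replicate 1, 119 without Atp7b-/- replicate 3). For members, pathway genes and all genes, leaving out either paired-end library was in effect the fit of the single-end libraries only. Those fits are not separate checks. In an alternative chosen after seeing the data, without wild type replicate 3 and Atp7b-/- replicate 3, 2 members and 0 pathway genes were called. Changes of sign occurred only in genes that were not called: Bcl2 stood at 0.0067 with limma-voom and between -0.48 and 0.0537 with 1 library left out, Mcl1 at 0.0103 in the single-end libraries, between -0.37 and 0.0218 with 1 library left out and at 0.34 in that added alternative, Bak1 between -0.0253 and 0.38, Bok between -0.036 and 0.71, and Foxo3 between -0.74 and 0.0654, the upper values of these 3 from the added alternative. The cause of these changes was not tested. No paired analysis was possible because the labels give the groups no shared replicate numbers.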

Other observations

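Family genes below the filter on low counts were Bcl2a1a, Bcl2a1b, Bcl2a1d, Bcl2l10, Pmaip1, Hrk, Bcl2l14 and Bcl2l15, and they entered no comparison. Pmaip1 (Noxa), a p53-induced BH3-only gene that binds Mcl1, had raw counts of 21, 3 and 0 in wild type and 1, 4 and 8 in Atp7b-/- replicates 1 to 3. Bcl2l14 had raw counts of 12, 4 and 1 in wild type and 18, 3 and 27 in Atp7b-/- libraries, and Bcl2l10 had 0 in every library. The leukocyte gene Bcl2a1a had 1, 0 and 0 counts in wild type and 0, 0 and 5 in Atp7b-/- libraries.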
